A study of Mus musculus with 4 samples.

Results

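Mural cells are the outer cells of blood vessels: pericytes on capillaries, and smooth muscle cells on arterioles and arteries. In the fetal brain, pericytes are recruited to sprouting vessels by PDGF-B, which endothelial cells secrete and the receptor PDGFRB on pericytes binds. Smooth muscle cells add a contractile apparatus of smooth muscle actin, the regulatory light chain of myosin, and binding proteins. The genes of this apparatus are known targets of the transcription factor SRF, which binds the CArG box. The genes followed here are 10 listed by name for their known function: the pericyte genes Pdgfrb, Rgs5, Notch3, Abcc9, Anpep and Ndufa4l2, and the contractile and filament genes Acta2, Tagln, Myl9 and Des. Rows of 9 of the 10 are in both deposited tables, out of 20385 genes that both hold, and the tenth, Tagln, is in 1 table only. After the filter on low counts, 8 of the 10 entered the test over 16371 genes.

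The tissue was cerebral cortex at embryonic day 16, taken from mice of the C57BL/6 strain. Of 9 marker genes of cortical progenitors and neurons, such as Emx1 and Tbr1, all 9 were in both tables, each with 423 counts or more in every library. The groups were Cd93 KO, with libraries KO 5 and KO 6, and wild type (WT), with libraries WT 1 and WT 4. CD93 is a transmembrane receptor best known from endothelial cells, and the series is about its part in astrogenesis. The labels give neither the deleted part of Cd93, nor the cells in which it was lost, nor the number of embryos behind a library, so the p-values measure the spread between these libraries, which may be technical. The authors deposited 2 tables with 1 KO and 1 WT library each. Table A pairs KO 6 with WT 1, and table B pairs KO 5 with WT 4. The series describes triplicates, and these 4 libraries were analysed here.

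Libraries held 16318317 to 17586157 counts, so a single count was 0.0569 to 0.0613 CPM, the unit of counts scaled to library size. CPM values below are also scaled by TMM, the normalization of edgeR. Cd93 itself had 111 and 99 counts in KO 5 and KO 6, against 680 and 409 in WT 1 and WT 4, an order that follows the genotype labels. Its log2 fold change was -2.32 (SE 0.25), with a Benjamini-Hochberg adjusted p of 0.211 in edgeR, the count model of the fits below. Cd93 was called when the deposited table was a block (-2.285, edgeR adjusted p 0.000971), with DESeq2, and without WT 1 or WT 4. WT 1 stood apart from the other libraries in genes of neighbouring tissues. The 16 genes of meninges and fibroblasts summed to 68.7 and 91.5 CPM in KO 5 and KO 6, against 695 CPM in WT 1 and 118 CPM in WT 4. The 10 genes of the ganglionic eminence, the ventral forebrain beside the cortex, summed to 244 and 354 CPM in KO 5 and KO 6, against 670 CPM in WT 1 and 355 CPM in WT 4. The fit of each mural cell gene tested is therefore given also without WT 1, as are other values that rest on it. Without WT 1 the median log2 fold change was -0.38 over 15 meningeal genes tested and -0.75 over 10 of the ganglionic eminence. Below 0 in both tables were 14 of the 15 and 9 of the 10, beside 22.9% of all genes tested. Table A still includes WT 1. The medians for KO 6 over WT 4 were 0.02 and -0.23.

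Most of the pericyte genes were well covered, while Acta2, Des and Tagln, markers of contractile cells, had few counts. Set per kilobase of merged exons, Rgs5, which encodes a regulator of G protein signalling abundant in pericytes, was the highest of the 9 genes in each of the 4 libraries, at a mean level of 19.8 CPM per kilobase over the 4 libraries. Myl9, which encodes the regulatory light chain of smooth muscle and non-muscle myosin, came next in each library, at 10.7 CPM per kilobase. Notch3, the receptor gene that marks mural cells, Pdgfrb and Ndufa4l2, a gene of a mitochondrial protein related to NDUFA4, had mean levels of 4.90, 4.61 and 4.003 CPM per kilobase. These 3 changed places from library to library, so their order did not hold against the spread. Abcc9, the gene of the sulfonylurea receptor SUR2 of K-ATP channels, followed at 1.87 CPM per kilobase and Anpep, the gene of aminopeptidase N (CD13), at 1.04 CPM per kilobase. Acta2, the gene of smooth muscle alpha-actin, had a mean level of 0.605 CPM per kilobase, and Des, the gene of the intermediate filament protein desmin, 0.204 CPM per kilobase. The Acta2 mean rests on WT 1, at 2.02 CPM per kilobase, against 0.234 and 0.112 in KO 5 and KO 6 and 0.0534 in WT 4. The order of these genes also changed, with Acta2 below Des in KO 6 and WT 4, and Anpep above Abcc9 in WT 1. Tagln, the gene of the actin-binding protein transgelin (SM22-alpha), had 1 count in KO 6 and 1 in WT 1, and table B does not list it. Both values are under the floor of 3 counts, so no fold is given for Tagln. Its exons overlap other genes over 1349 of their 1988 bases, and whether this lowered its counts was not tested.

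**Figure D1:**
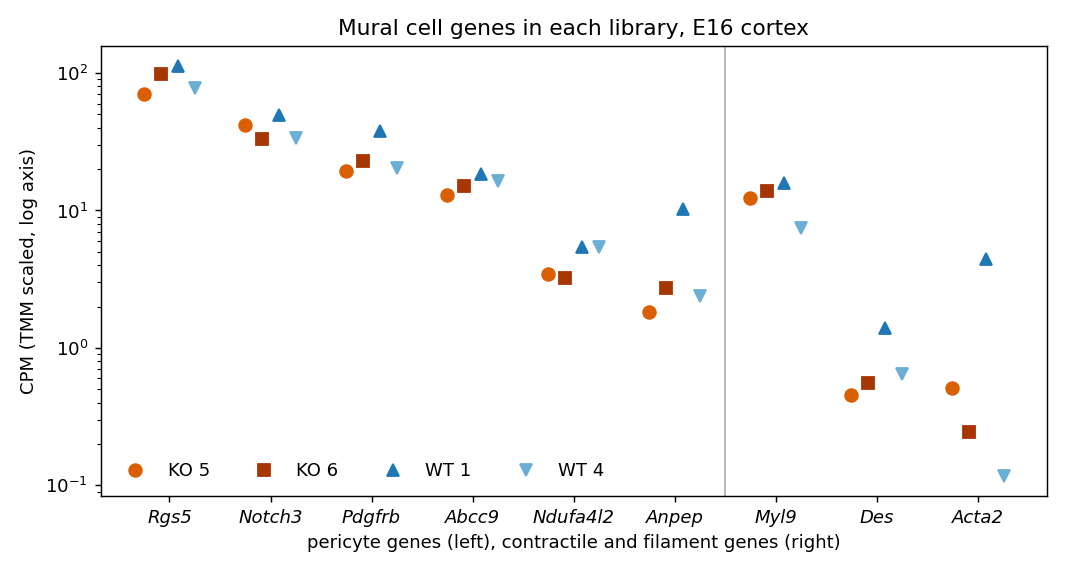
Level of 9 mural cell genes in each library, in CPM scaled by TMM on a log axis, with circles and squares for KO 5 and KO 6 and upward and downward triangles for WT 1 and WT 4. WT 1 is the highest library for 8 of the 9 genes, and both KO libraries lie below both WT libraries for Abcc9, Ndufa4l2 and Des.

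Promoters of 7 of the 10 genes were matched in RefSeq (build GRCm38.p6), all but Pdgfrb, Tagln and Ndufa4l2. The 250 bases before the start were searched on both strands for the CArG box, and for the same box with 1 G or C in its core. The strict box was present in 1 of the 7 genes (Myl9), against 1.47% of 32851 promoters, and the relaxed box in 2 (Acta2 and Myl9), against 7.24%. The 2 promoters with a match are shown. Boxes are in capitals, and a match is a description of the letters, not of binding.
Acta2: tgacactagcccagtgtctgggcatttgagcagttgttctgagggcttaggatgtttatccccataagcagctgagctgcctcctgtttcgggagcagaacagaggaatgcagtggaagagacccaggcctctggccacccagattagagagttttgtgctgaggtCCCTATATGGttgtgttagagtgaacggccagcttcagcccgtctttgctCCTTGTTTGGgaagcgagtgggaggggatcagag
Myl9: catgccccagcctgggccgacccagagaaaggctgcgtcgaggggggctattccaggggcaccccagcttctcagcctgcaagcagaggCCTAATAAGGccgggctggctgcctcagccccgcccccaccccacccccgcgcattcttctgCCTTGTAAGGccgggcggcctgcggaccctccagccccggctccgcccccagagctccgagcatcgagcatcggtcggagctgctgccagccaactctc
The Acta2 stretch is chr19:34255374-34255623 on the minus strand, and its boxes, CCCTATATGG and CCTTGTTTGG, begin 84 and 34 bases before the start. The Myl9 stretch is chr2:156775214-156775463 on the plus strand. Its strict box, CCTAATAAGG, begins 161 bases before the start and its relaxed box, CCTTGTAAGG, 99 bases before it.

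No mural cell gene passed the test between genotypes. Of the 8 tested, edgeR called 0 at an adjusted p of 0.05, where 2 of 16371 genes were called, 0.0122%. DESeq2 and limma-voom also called 0 of the 8. When each deposited table was made a block, edgeR called 0 of the 8 and 0.177% of all genes, and without WT 1 0 of the 8 and 0.147%. At an unadjusted p under 0.05 stood 1 of the 8 (Ndufa4l2), against 1.94% of all genes tested. The fitted log2 fold change was below 0 in 7 and above 0 in 1 (Myl9), with a median of -0.38, beside a median of -0.003 over all genes tested. Without WT 1 the median of the 8 was -0.015. In bulk tissue, fewer mural cells and less RNA per mural cell cannot be told apart. Des passed the filter through the WT libraries alone, since both KO libraries were under the 0.576 CPM that the filter asks of 2 libraries. Its inclusion thus favours a lower value in KO. In the fit asking at least 10 counts in every library, which Des fails, the median of the others was -0.31.

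Of the 9 genes, Ndufa4l2 had the closest values within a genotype and both KO libraries below both WT libraries. This gene (ENSMUSG00000040280, chromosome 10, 127514967 to 127517154) had 60 and 52 counts in KO 5 and KO 6, against 97 and 93 in WT 1 and WT 4. In CPM these were 3.42 and 3.20 in KO 5 and KO 6, against 5.45 and 5.46 in WT 1 and WT 4. Both KO libraries were lower, and the libraries within a genotype lay close together. The level was 3.31 ± 0.155 CPM in KO and 5.45 ± 0.00398 CPM in WT (SD, n = 2 each). The fit gave -0.72 on the log2 scale (SE 0.26), at an unadjusted p of 0.0288 and an adjusted p of 0.9999 in edgeR. Table A alone gave a log2 ratio of -0.75 and table B alone -0.66, and without WT 1 the fit gave -0.72. The ratio of KO to WT counts at equal depth was 0.587 in table A (95% counting interval 0.411 to 0.831) and 0.627 in table B (0.445 to 0.877). Within a genotype the interval was 0.744 to 1.34 for WT 1 over WT 4 and 0.633 to 1.38 for KO 6 over KO 5. Counting error was thus wider than the small distances seen within a genotype. Such intervals cover only the error of counting, as PCR copies of a molecule were not told apart. Its relative Ndufa4, a subunit gene of the respiratory chain, was at 132 CPM in KO and 126 CPM in WT, where the fit gave 0.07 (SE 0.22) on the log2 scale.

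Abcc9 was the other gene whose genotype difference exceeded the distance between the libraries within each genotype. It lies on chromosome 6 (ENSMUSG00000030249, 142587862 to 142702315) and had 228 and 244 counts in KO 5 and KO 6, against 327 and 279 in WT 1 and WT 4. The CPM values were 13.0 and 15.0 in KO 5 and KO 6, against 18.4 and 16.4 in WT 1 and WT 4. Both KO libraries were lower than both WT libraries, by a small step. The log2 fold change was -0.31 (SE 0.17, edgeR adjusted p 0.9999), -0.29 and -0.33 within tables A and B and -0.23 without WT 1. Kcnj8 encodes Kir6.1, the pore subunit that pairs with SUR2 in mural cells. It had 124 and 115 counts in KO 5 and KO 6, against 175 and 138 in WT 1 and WT 4, and here too the genotypes did not overlap. The log2 fold change of Kcnj8 was -0.34 (SE 0.22, edgeR adjusted p 0.9999), or -0.19 without WT 1. The K-ATP subunits of neurons and endocrine cells, Abcc8 and Kcnj11, gave 0.19 (SE 0.20) and -0.004 (SE 0.20) on the log2 scale, or -0.04 and -0.12 without WT 1, and their genotypes overlapped.

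Both KO libraries lay below both WT libraries in 3 of the 9 genes, Ndufa4l2, Abcc9 and Des, and above them in 0. Of the 8 genes tested, which leave out Acta2, the numbers were also 3 and 0. Over all genes tested these shares were 11.9% and 11.5%. Des passed the filter through the WT libraries alone, which favours a lower value in KO, so its place among the 3 is not independent of the filter. For Des (ENSMUSG00000026208, chromosome 1, 75360329 to 75368579) the counts were 8 and 9 in KO 5 and KO 6, against 25 and 11 in WT 1 and WT 4. KO 6 and WT 4 differed by 2 counts. The ratio of KO to WT counts was 0.707 in table B, with a 95% counting interval of 0.247 to 1.93, so no difference was detectable there at this depth. The log2 fold change of Des was -1.02 (SE 0.55, edgeR adjusted p 0.9999), and without WT 1 it was -0.35.

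Pdgfrb, the receptor gene at the centre of pericyte recruitment, was high in WT 1 and alike in the other libraries. The gene (ENSMUSG00000024620, chromosome 18, 61045150 to 61085061) had 342 and 375 counts in KO 5 and KO 6, against 677 in WT 1 and 348 in WT 4. In CPM it stood at 19.5 and 23.1 in KO 5 and KO 6, against 38.1 in WT 1 and 20.4 in WT 4. KO 6 was above WT 4, so the genotypes overlapped. The level was 21.3 ± 2.54 CPM in KO and 29.2 ± 12.5 CPM in WT (SD, n = 2 each). The fit gave -0.46 on the log2 scale (SE 0.28, edgeR adjusted p 0.9999). Table A alone gave -0.72 and table B alone -0.07, and without WT 1 the fit turned to 0.06. Pdgfra, the gene of the related receptor of fibroblasts and oligodendrocyte precursors, had the same order, with 179 and 195 counts in KO 5 and KO 6 against 560 in WT 1 and 180 in WT 4.

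Rgs5 varied more within genotypes than between them. Its counts (ENSMUSG00000026678, chromosome 1, 169655501 to 169695813) were 1242 and 1599 in KO 5 and KO 6, against 1989 and 1333 in WT 1 and WT 4. The level was 84.6 ± 19.5 CPM in KO and 95.005 ± 23.7 CPM in WT (SD, n = 2 each). KO 6 and WT 1 were high and KO 5 and WT 4 low, which is the split between tables A and B. Within the tables the log2 ratio was alike, at -0.18 for KO 6 over WT 1 and -0.14 for KO 5 over WT 4, and the fit gave -0.17 (SE 0.21, edgeR adjusted p 0.9999). Without WT 1 it was 0.11.

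Notch3 had KO below WT in table A and above it in table B. The gene (ENSMUSG00000038146, chromosome 17, 32120820 to 32166880) had 739 and 535 counts in KO 5 and KO 6, against 887 and 570 in WT 1 and WT 4. KO 5 was second to WT 1, and KO 6 was the lowest library. For KO 6 over WT 1 the log2 ratio was -0.60, and the ratio of counts was 0.661 (95% counting interval 0.592 to 0.736). For KO 5 over WT 4 the log2 ratio was 0.33, and the ratio of counts was 1.26 (1.13 to 1.41). Neither interval includes 1, and they lie on opposite sides of it. The fit over the 4 libraries gave -0.15 (SE 0.22, edgeR adjusted p 0.9999), which was 0.17 without WT 1 and 0.02 without KO 6. The authors' deposited table A puts Notch3 below WT 1 in KO 6 (adjusted p 4.5e-14, 1 library each). The authors' deposited table B puts it above WT 4 in KO 5 (adjusted p 0.000418, 1 library each). Neither of the authors' deposited tables marks Notch3 as significant.

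Anpep had its highest level in WT 1 by a wide margin. The gene (ENSMUSG00000039062, chromosome 7, 79821803 to 79861059), whose peptidase is also carried by fibroblasts and myeloid cells, had 32 and 44 counts in KO 5 and KO 6, against 182 in WT 1 and 41 in WT 4. KO 6 was above WT 4, and WT 1 was 4.25 times WT 4 (95% counting interval 3.02 to 6.12). The log2 fold change was -1.48 (SE 0.65, edgeR adjusted p 0.9999), with -1.87 from table A alone and -0.38 from table B alone. Without WT 1 it was -0.09. Without WT 4 edgeR called Anpep, at -2.17 with an adjusted p of 0.00255, in a fit that called 1.31% of all genes and no other mural cell gene.

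**Figure D2:**
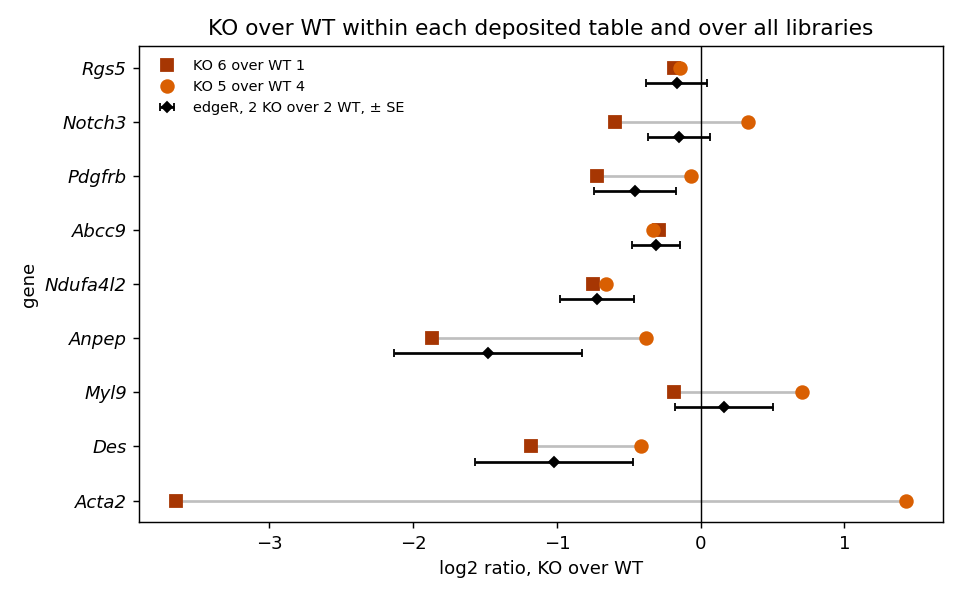
Log2 ratio of KO over WT for 9 mural cell genes, as KO 6 over WT 1 (squares) and KO 5 over WT 4 (circles) joined by a grey line, with the edgeR estimate over all 4 libraries and its SE (black diamonds, 8 genes tested). Abcc9, Ndufa4l2 and Rgs5 have nearly the same ratio in both tables, while Notch3, Myl9 and Acta2 lie on opposite sides of 0.

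Among the contractile genes, Myl9 and Acta2 both had WT 1 as the highest library and WT 4 as the lowest. Myl9 (ENSMUSG00000067818, chromosome 2, 156775420 to 156781658) had 216 and 226 counts in KO 5 and KO 6, against 282 in WT 1 and 128 in WT 4. The KO libraries were alike and lay between the WT libraries, so the genotypes overlapped. Its level was 13.1 ± 1.13 CPM in KO and 11.7 ± 5.90 CPM in WT (SD, n = 2 each). The fitted log2 fold change was 0.17 (SE 0.34, edgeR adjusted p 0.9999), with -0.19 from table A alone and 0.70 from table B alone. It was 0.80 without WT 1 and -0.27 without WT 4, so the direction rested on which WT library was kept.

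Acta2 (ENSMUSG00000035783, chromosome 19, 34241090 to 34255336) had 9 and 4 counts in KO 5 and KO 6, against 79 in WT 1 and 2 in WT 4. Both KO libraries and WT 4 had 9 counts or fewer, and WT 1 alone was well above them. The WT libraries differed 37.8 times at equal depth, with a 95% counting interval of 10.1 to 318. The ratio of counts was 0.0555 (0.0148 to 0.148) for KO 6 over WT 1, and 4.37 (0.905 to 41.6) for KO 5 over WT 4. Acta2 did not pass the filter on low counts. With no filter edgeR gave a log2 fold change of -2.55 (SE 1.31, adjusted p 0.9996). The authors' deposited table A marks Acta2, Anpep and Des as significant, and the authors' deposited table B marks 0 of the 9 mural cell genes it lists.

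As a group, the 9 genes had their highest values in WT 1. It was the highest library for 8 of the 9 genes, all but Ndufa4l2, where 27.9% of all genes tested had WT 1 highest. Of the 8 tested it was the highest for 7. The shares of all genes are over those that passed the filter, which Acta2 did not and Des did through the WT libraries alone. The median log2 ratio of the 9 was -0.72 for KO 6 over WT 1, beside -0.001 over all genes tested, and -0.14 for KO 5 over WT 4, beside -0.002. KO 6 over WT 1 was below 0 in all 9 and KO 5 over WT 4 in 6 of 9. Below 0 in both tables were 6 of the 9, the same 6 among the 8 tested, where 22.9% of all genes tested were. At least 2-fold lower in table A were Anpep, Acta2 and Des, where 3.51% of all genes were, and at least 2-fold higher were 0 of the 9, where 1.37% were. In table B at least 2-fold lower were 0 of the 9, where 1.56% of all genes were, and at least 2-fold higher was 1 of the 9 (Acta2, on 9 against 2 counts), where 1.23% were. For WT 1 over WT 4 the same fold was passed upward by 3 of the 9 (Anpep, Acta2 and Myl9), where 4.66% of all genes were, and downward by 0, where 1.44% were. For KO 6 over KO 5 it was passed upward by 0 of the 9, where 2.6% were, and downward by 0, where 1.41% were. These folds had the prior count of 2 added. Without the prior, Des was at 2.18 for WT 1 over WT 4 and Acta2 at 0.480 for KO 6 over KO 5, both on few counts. Across tables, the median of the 9 was -0.66 for KO 5 over WT 1 and 0.16 for KO 6 over WT 4. Between the WT libraries, WT 1 over WT 4, it was 0.89, and between the KO libraries, KO 6 over KO 5, it was 0.21.

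Markers of several other cell types also had their highest values in WT 1. Of the 20 genes of endothelial cells, the vessel's inner lining on which pericytes sit, 18 were highest in WT 1, and the list summed to 308 and 301 CPM in KO 5 and KO 6, against 444 CPM in WT 1 and 288 CPM in WT 4. Among them Cdh5, the gene of the endothelial junction protein VE-cadherin, had 219 and 216 counts in KO 5 and KO 6, against 641 in WT 1 and 230 in WT 4. Abcb1a, the gene of a drug pump of the blood-brain barrier, had 36 and 43 counts in KO 5 and KO 6, against 98 and 72 in WT 1 and WT 4, so its genotypes did not overlap. The 12 microglia and macrophage genes summed to 50.2 and 54.6 CPM in KO 5 and KO 6, against 105 CPM in WT 1 and 54.5 CPM in WT 4, and 11 of 12 were highest in WT 1. The 15 tested genes of meninges and fibroblasts were all highest in WT 1, among them the collagen gene Col3a1, with 119 and 175 counts in KO 5 and KO 6, against 2795 in WT 1 and 283 in WT 4. The part of these cells in the mural cell result was not tested. Red cell genes went another way, with 767 and 1468 CPM in KO 5 and KO 6, against 1066 and 1010 CPM in WT 1 and WT 4. Of 18 genes of skeletal and cardiac muscle, which also use desmin and alpha-actins, 10 were missing from 1 or both tables, Myod1, Myog, Myf5 and Pax7 among them. The other 8 summed to 5.47 and 7.39 CPM in KO 5 and KO 6, against 4.89 and 6.10 CPM in WT 1 and WT 4, and 6 of the 8 had a mean below 1 CPM. The 5 choroid plexus genes in both tables summed to 6.10 and 18.5 CPM in KO 5 and KO 6, against 17.9 and 4.99 CPM in WT 1 and WT 4, and Kcnj13 of that list is in neither table.

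**Figure D3:**
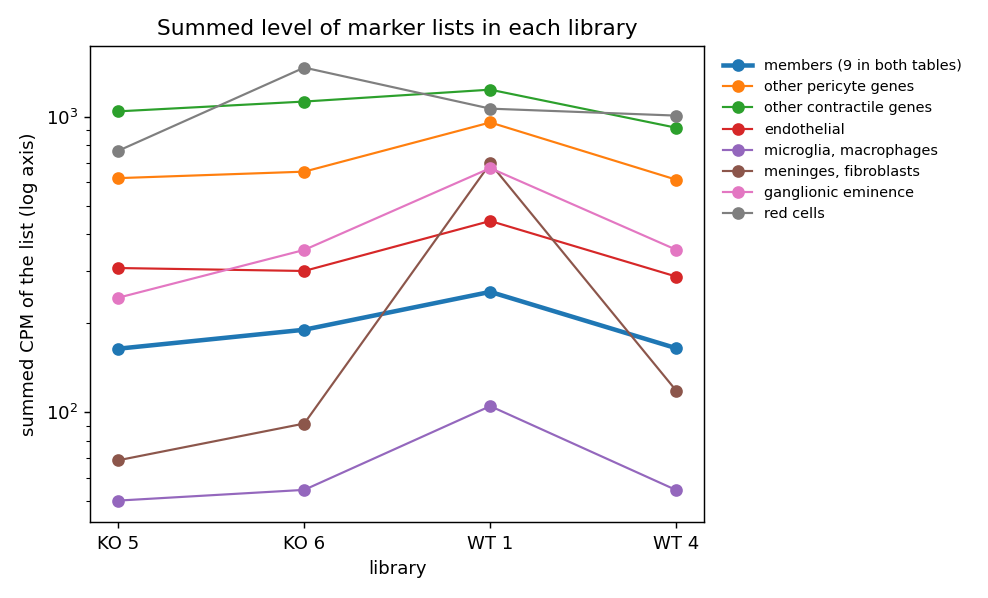
Summed CPM of the 9 mural cell genes and of 7 marker lists in each library, on a log axis, KO 5 and KO 6 left of WT 1 and WT 4. The mural, other pericyte, endothelial, macrophage, meningeal and ganglionic eminence sums peak in WT 1, meninges most steeply, and the red cell sum peaks in KO 6.

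Relative to endothelial genes, the sum of the 6 pericyte genes overlapped between genotypes, as did 5 of the 6 genes alone, all but Ndufa4l2. Rgs5 and Notch3 made up most of the pericyte sum, with 70.8 and 42.1 of 151 CPM in KO 5 and 112 and 49.9 of 234 CPM in WT 1. The summed CPM of the 6 pericyte genes divided by that of the endothelial list was 0.490 in KO 5 and 0.583 in KO 6, against 0.526 in WT 1 and 0.543 in WT 4. The KO values enclosed the WT values. Pdgfrb alone gave 0.0634 and 0.0768 in KO 5 and KO 6, against 0.0857 and 0.0709 in WT 1 and WT 4. For Notch3 these ratios were 0.137 and 0.110 in KO 5 and KO 6, against 0.112 and 0.116 in WT 1 and WT 4. For Ndufa4l2 they were 0.0111 and 0.0106 in KO 5 and KO 6, against 0.0123 and 0.0190 in WT 1 and WT 4, so both KO libraries were below both WT libraries. The step from KO 5 to WT 1 was small, on 60 and 97 counts of Ndufa4l2. With 2 libraries per genotype an exact permutation test cannot go below a two-sided p of 0.333, so the ratios are given without a test.

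**Figure D4:**
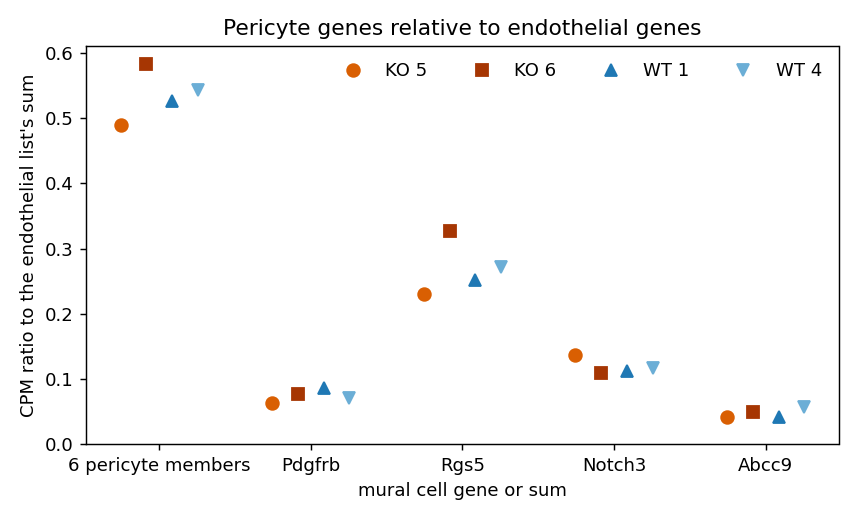
Ratio of mural cell CPM to the summed CPM of the 20 endothelial genes, for the sum of the 6 pericyte genes and for Pdgfrb, Rgs5, Notch3 and Abcc9, in KO 5 and KO 6 (circle, square) and WT 1 and WT 4 (triangles). For the sum of 6, the KO libraries lie at 0.490 and 0.583 and the WT libraries between them, at 0.526 and 0.543.

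Other genes of the same cells and pathways were read from lists, and the edgeR fit to all 4 libraries called 0 of the 161 different genes tested over the 14 lists, the marker lists above included. DESeq2 and limma-voom also called 0. When each deposited table was a block edgeR called 13, where 0.177% of all genes tested were called. Of the 13, 6 were in the list of meninges and fibroblasts and 7 in that of the ganglionic eminence. The median log2 fold change of the meningeal list was -0.38 without WT 1 and -3.53 without WT 4. For the ganglionic eminence these medians were -0.75 and -2.18. At an unadjusted p under 0.05 stood 25 of the 161, beside 1.94% of all genes tested, with 11 in the meningeal list and 7 in that of the ganglionic eminence. Of 29 other pericyte genes tested, 8 had a log2 fold change above 0 and 21 below it, with a median of -0.19, or 0.03 without WT 1. Tbx18, a transcription factor gene of mural and meningeal cells, had 10 and 11 counts in KO 5 and KO 6, against 182 in WT 1 and 12 in WT 4. The basement membrane gene Lamc3, a laminin chain, had 48 and 38 counts in KO 5 and KO 6, against 233 in WT 1 and 48 in WT 4. Enpep, the gene of the pericyte ectopeptidase aminopeptidase A, had 9 and 8 counts in KO 5 and KO 6, against 55 and 10 in WT 1 and WT 4. In these 3 genes KO 5, KO 6 and WT 4 were alike and WT 1 stood alone. The collagen IV gene Col4a1, part of the vessel's basement membrane, was at 101 and 100.4 CPM in KO 5 and KO 6, against 235 CPM in WT 1 and 99.0 CPM in WT 4. The fit gave -0.73 (SE 0.36) on the log2 scale, or 0.02 without WT 1, so WT 1 alone was high. Gucy1a3, which encodes a subunit of the nitric oxide receptor guanylate cyclase, was at 146 CPM in KO and 153 CPM in WT.

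Of 17 other contractile genes tested, 7 had a log2 fold change above 0 and 10 below it, with a median of -0.04, or 0.21 without WT 1. Myh11, the smooth muscle myosin heavy chain gene, had 13 and 2 counts in KO 5 and KO 6, against 37 and 10 in WT 1 and WT 4. It was thus as sparse as Acta2 and Des. Cald1, the gene of the actin-binding caldesmon, was at 33.6 and 40.3 CPM in KO 5 and KO 6, against 55.3 CPM in WT 1 and 40.02 CPM in WT 4. Tpm2, a tropomyosin gene, was at 2.91 and 3.45 CPM in KO 5 and KO 6, against 7.08 CPM in WT 1 and 3.34 CPM in WT 4. In both genes WT 4 lay between the KO libraries, and the log2 fold changes of -0.37 (SE 0.18) for Cald1 and -0.72 (SE 0.40) for Tpm2 were -0.12 and -0.07 without WT 1. Flna and Myl6, cytoskeletal genes that many cells use, were at 698 and 195 CPM in KO and 668 and 195 CPM in WT. Of the SRF list 8 genes were tested, 2 with a log2 fold change above 0 and 6 below it, with a median of -0.06, or 0.07 without WT 1. Myocd, the gene of the SRF cofactor myocardin, is in neither table. Klf4, the gene of a zinc-finger factor known to repress contractile genes in smooth muscle and also used by endothelial cells, had 27 and 21 counts in KO 5 and KO 6, against 50 and 65 in WT 1 and WT 4. Its genotypes did not overlap, and its log2 fold change was -1.22 (SE 0.34), with an unadjusted p of 0.0103 and an adjusted p of 0.9999 in edgeR, or -1.42 without WT 1. The cofactor genes Mkl1 and Mkl2, the names in the tables for Mrtfa and Mrtfb, gave -0.10 (SE 0.10) and -0.18 (SE 0.12) on the log2 scale, and Mef2c, a muscle and neuron factor gene, 0.17 (SE 0.16).

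Signals that recruit and mature mural cells gave 0 called genes in the edgeR fit to all 4 libraries. Without WT 4, in a fit that sets the KO libraries against WT 1 alone, median log2 fold changes were lower. They were -0.07 in the PDGF list, -0.18 in the Notch list and -0.52 over the other recruitment signals. In the PDGF list 4 of 9 tested genes had a log2 fold change above 0 and 5 below it, with a median of -0.002, or 0.07 without WT 1. Among them Plat, the gene of the protease that activates PDGF-CC, was at 21.3 and 20.3 CPM in KO 5 and KO 6, against 34.4 CPM in WT 1 and 18.1 CPM in WT 4. Its log2 fold change of -0.33 (SE 0.28) turned to 0.20 without WT 1. Lrp1 and Grb2, a co-receptor and an adaptor gene, had -0.10 (SE 0.13) and 0.02 (SE 0.14), or -0.01 and -0.10 without WT 1. In the Notch list 6 of 14 were above 0 and 8 below it, with a median of -0.07, or 0.06 without WT 1. Jag1, the ligand gene through which vessel cells engage Notch3, had 171 and 169 counts in KO 5 and KO 6, against 311 and 183 in WT 1 and WT 4. Heyl, a Notch target gene of mural cells, had 106 and 103 counts in KO 5 and KO 6, against 193 and 101 in WT 1 and WT 4. Without WT 1 the log2 fold change was -0.09 for Jag1, against -0.49 with it, and 0.06 for Heyl, against -0.44 with it. For Dll1, a ligand gene of neural progenitors, the log2 fold change was -0.21 (SE 0.13). Notch1 and Notch2, the receptor genes of progenitors, were below WT in table A and above it in table B, as Notch3 was. The log2 ratios of Notch1 were -0.52 for KO 6 over WT 1 and 0.54 for KO 5 over WT 4, and those of Notch2 were -0.46 and 0.34. Among the other recruitment signals 5 of 13 were above 0 and 8 below it, with a median of -0.20, or 0.05 without WT 1. Tgfbr2, the TGF-beta type II receptor gene, was at 7.01 and 6.83 CPM in KO 5 and KO 6, against 15.7 CPM in WT 1 and 8.10 CPM in WT 4. Its log2 fold change was -0.78 (SE 0.33), or -0.23 without WT 1. Its ligand genes Tgfb1 and Tgfb2 gave -0.52 (SE 0.28) and 0.38 (SE 0.19) on the log2 scale, or -0.38 and 0.18 without WT 1, and neither passed. Cdh2, the N-cadherin gene, and Tgfbr1, the TGF-beta type I receptor gene, were at 437 and 140 CPM in KO and 397 and 130 CPM in WT. The 3 K-ATP genes, given above, had a median of -0.004.

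Little of these genes' transcript sequence also occurs in other genes, while reads themselves were not examined. Of the 25-base words in a gene's transcripts, 3.50% of those of Acta2 also occur in other genes, with Actg1 the most alike, and for the other 9 genes the share was 2.44% or less. Exons of Notch3, Abcc9 and Des overlap antisense genes over 488, 158 and 220 bases, and those of Ndufa4l2 overlap Shmt2 over 32 bases. Those of Tagln overlap 2 genes over 1349 of 1988 bases. Whether counting used strand is not given in the sources used here, and without strand, reads of these overlaps cannot be assigned to 1 gene.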

How the data were processed

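Total RNA of E16 cerebral cortex was made into libraries with an Illumina TruSeq RNA kit, per the labels. Named in the submitters' processing notes, with no role given, are HTSeq 0.6.0, TopHat2 2.0.12, Bowtie2 2.2.3 and mm9. Gene coordinates in the tables are nonetheless from GRCm38: of 23279 genes found in GENCODE M21, 92.2% have the same start and end. The deposited tables hold whole counts per Ensembl gene, and CPM made by the authors from each library's total. The deposited fold change is a ratio of KO to WT within a table, and the deposited log2 value is its logarithm. The deposited p-value compares 1 library with 1 library.

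The main test was edgeR 4.0.16 under R 4.3.3, on counts of the 20385 genes in both tables (TMM factors 0.994 to 1.012, filterByExpr with a minimum count of 10, quasi-likelihood test, two-sided, genotype only, Benjamini-Hochberg adjustment over 16371 genes at 0.05). DESeq2 1.42.0 and limma 3.58.1 served as alternatives, with Python 3.11.15, pandas 2.3.3, scipy 1.17.1 and matplotlib 3.10.9 for tables and plots. The 2943 genes in 1 table only were not tested. Libraries held 16318317 to 17586157 counts, so 3 counts, the floor used, were 0.171 to 0.184 CPM, and intervals and floors cover counting error only. The script was tested on simulated data. For ratios of 2 libraries the log2 CPM had a prior count of 2 added, and counting intervals are exact (Clopper-Pearson, conditional on the sum). Levels per kilobase use merged exons of GENCODE M21. Genes and lists were chosen with earlier results of these data known, and the cortex markers after the counts were seen. Named from each list were the 3 genes of smallest p and the 2 of highest CPM, apart from some that are summarised, together with close relatives.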

Additional observations from a re-analysis of the deposited data

How the results depend on the processing

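No paired analysis was possible because the genotypes share no replicate number. Taking the deposited table as a block stands in its place. Over 8 tested mural cell genes, RLE size factors, no filter, DESeq2, limma-voom and the table block kept each direction and gave no call, and so did a minimum of 10 counts in every library for the 7 genes that pass it (all but Des). Leaving out 1 library leaves its genotype with a lone library, which the fit assumes to vary like the other genotype, and turned the direction in 4 genes: the log2 fold change ran from -0.83 to 0.06 for Pdgfrb, -0.42 to 0.11 for Rgs5, -0.40 to 0.17 for Notch3 and -0.27 to 0.80 for Myl9. Pdgfrb was above 0 without WT 1, Rgs5 without WT 1 and without KO 5, Notch3 without WT 1 and without KO 6, and Myl9 below 0 without WT 4. The median of the 8 ran from -0.56 (without WT 4) to -0.015 (without WT 1), and was 0.071 for KO 6 over WT 4. WT 1 was the highest library for 8 of 9 genes with RLE size factors and for 9 with library totals. Over all genes, the calls numbered 29 with the table block, 1 with at least 10 counts in every library, 8 with DESeq2, and 5 to 214 when a library was left out (24 without WT 1, 214 without WT 4, 5 without KO 5, 7 without KO 6). The log2 fold change of Cd93 passed with DESeq2 (-2.32), with the table block (-2.285), without WT 1 (edgeR adjusted p 0.0011) and without WT 4 (9.27e-06), and did not without KO 5 (0.498) or KO 6 (0.485). It ran from -2.615 to -1.95 when a library was left out, and was -1.90 for KO 5 over WT 4 and -1.96 for KO 6 over WT 4. Low counts limited Acta2 and Des, which had 11 counts or fewer in KO 5, KO 6 and WT 4. They also limited Tagln, which had 1 count in each library of table A. The part of its exon overlaps in that was not tested. The causes of these changes were not tested.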

Other observations

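Among relatives of the mural cell genes, actin genes took different orders over the libraries. Actc1, the cardiac alpha-actin gene, had 13 and 11 counts in KO 5 and KO 6, against 1 in WT 1 and 12 in WT 4, so WT 1 was its lowest library. Acta1, the skeletal alpha-actin gene, had 19 and 34 counts in KO 5 and KO 6, against 20 and 29 in WT 1 and WT 4. The smooth muscle gamma-actin gene Actg2 had 3 and 1 counts in KO 5 and KO 6, against 9 and 1 in WT 1 and WT 4. The cytoplasmic actin gene Actg1 was at 1606 CPM in KO and 1631 CPM in WT. Myl12a, a myosin light chain gene close to Myl9, had 757 and 668 counts in KO 5 and KO 6, against 723 and 514 in WT 1 and WT 4, and like Myl9 it was lowest in WT 4. Its relative Myl12b was at 235 CPM in both genotypes.

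Ttr, the transthyretin gene of the choroid plexus, had 17 and 222 counts in KO 5 and KO 6, against 178 and 8 in WT 1 and WT 4. The 2 libraries of table A were thus high and those of table B low, the same split as for Rgs5. Tagln2 and Tagln3, the relatives of Tagln used outside smooth muscle, had mean levels of 13.7 and 205 CPM per kilobase over the 4 libraries, where Tagln had 1 count in each library of table A. Exons of Tagln overlap other genes over 1349 of 1988 bases, so its level is not compared with theirs.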
